A study of Homo sapiens with 8 samples.

Results

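Ion channels are membrane proteins that open a path for potassium, sodium, calcium or chloride ions. The genes described here are 165 members of 8 symbol families, taken by gene symbol, of 18417 genes that a probeset of the array measures alone. They cover potassium channels and their auxiliary subunits (KCN), voltage-gated sodium (SCN) and calcium (CACN) channels, CLC chloride channels and exchangers (CLCN), anoctamins (ANO), subunits of the volume-regulated anion channel (LRRC8), the TRPC, TRPM and TRPV channels and the mechanically gated PIEZO channels. Affymetrix Human Gene ST arrays were run on RNA from spheroids, 4 of the cisplatin-resistant line OVCAR-8R and 4 of its parent OVCAR-8. OVCAR-8 is a human ovarian adenocarcinoma line. OVCAR-8R, named OVCAR-8C in the sample labels, was derived from it by raising the concentration of cisplatin, a DNA-crosslinking platinum drug, in steps to 5 μM, and it kept its resistance once the drug was removed. Both lines were kept in DMEM with serum and grown to spheroids of about 300 μm in agarose molds. There is 1 resistant line, so a difference linked to resistance cannot be told apart from any other change that arose during selection. The sources used here do not say whether the line is a clone, nor whether cisplatin was present while the spheroids grew.

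As background, potassium channels set the resting potential of a cell and take part in its volume control, while chloride channels let anions and water leave a swollen cell. Channels made of LRRC8 subunits open on swelling and, where LRRC8A and LRRC8D are present, also let platinum drugs into the cell. Calcium entering through TRP, PIEZO or voltage-gated channels, or released from internal stores, drives contraction, secretion and transcription. Most voltage-gated families are best known from nerve and muscle, but carcinoma cells also transcribe some of them.

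Values are log2 of the RMA signal, the background-corrected and quantile-normalized brightness of a probeset, and differences are means of OVCAR-8R minus means of OVCAR-8 with n = 4 arrays per line. A probeset was tested if its mean lay above the lowest quartile of signal in at least 1 line, and 136 of the 165 genes passed this filter. A gene was called at a Benjamini-Hochberg adjusted p under 0.05 (limma, over 25628 probesets) and a difference of at least 2-fold. Arrays measure RNA per culture, so fewer cells that transcribe a gene and less of its RNA per cell cannot be told apart. Over the probesets tested, arrays of one line correlated at r of 0.983 to 0.996 and arrays of different lines at 0.888 to 0.906. The epithelial keratin genes KRT8 and KRT18 had mean signals of 12.5 and 11.42 in OVCAR-8R and 9.54 and 9.53 in OVCAR-8. PAX8, a marker of Mullerian epithelium, had 10.28 and 6.51, whereas the E-cadherin gene CDH1 had 6.02 and 6.25 and the CA125 gene MUC16 had 5.74 and 5.67, against median log2 signals of 6.67 to 6.73 over all probesets of an array. The leukocyte gene PTPRC lay in the lowest quartile in both lines, at 3.86 and 3.97.

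Of the ion channel genes, 13 were called higher in OVCAR-8R, 7 were called lower and 116 were not called. The mechanosensitive channel gene PIEZO2 had the largest rise, 3.58 on the log2 scale or 11.9-fold, followed by KCNMA1, the pore of the large-conductance calcium-activated potassium channel, at 2.65. The anoctamin ANO5 had the largest fall, -2.18, followed by the calcium channel subunit gene CACNA2D3 at -1.92. The share called was near that of all genes, at 14.7% of the members tested against a background of 16.7% of the 15931 genes tested. By direction, 9.56% were higher and 5.15% lower, where the background was 8.37% higher and 8.37% lower. With no threshold on size, the adjusted p was under 0.05 for 42 members upward and 19 downward, together 44.9% against 57.6% of all genes. The 4 arrays of one line lay entirely above or below those of the other in 58 members, 42.6% against 56.8% of all genes. The median difference was 0.032 for the members and -0.0097 for all genes, and the median absolute difference was 0.20 and 0.34. Among the 136 members tested, PIEZO2 alone differed by more than 8-fold.

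**Figure D1:**
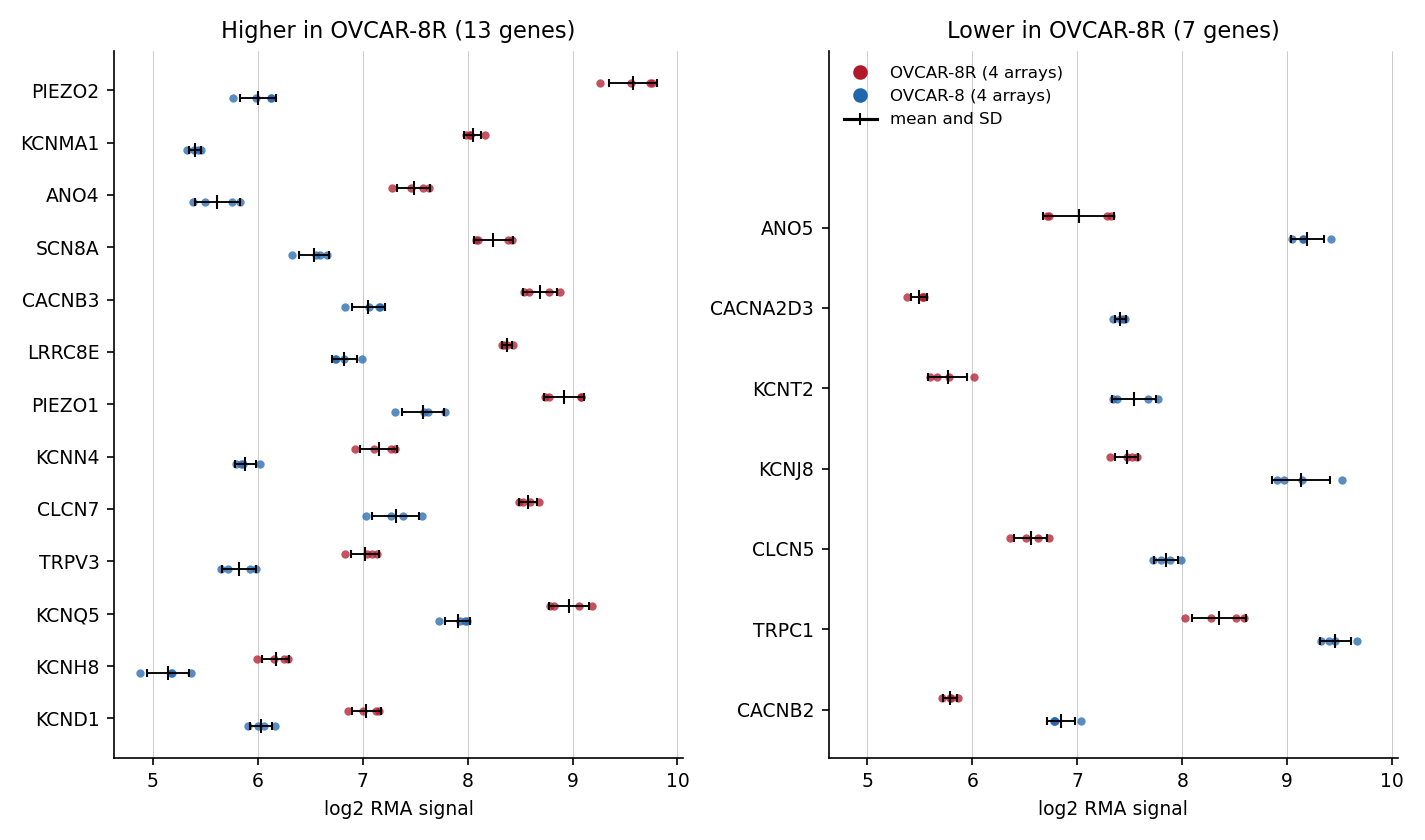
Log2 RMA signal (horizontal axis) of the 13 ion channel genes called higher and the 7 called lower in OVCAR-8R, with each OVCAR-8R array in red, each OVCAR-8 array in blue and the mean and SD of a line in black. In each of the 20 genes the points of the lines do not overlap, and the gap between means runs from 1.0 for KCND1 to 3.58 for PIEZO2.

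To show the regulatory sequence of the genes with the largest changes, the 250 bases before the RefSeq start are printed for PIEZO2, the largest rise, and ANO5, the largest fall (build GRCh38.p14, each 5′ to 3′ on the strand of its gene, CG dinucleotides in capitals). The PIEZO2 stretch lies at chr18:11149570-11149819 on the minus strand and the ANO5 stretch at chr11:22192356-22192605 on the plus strand.
PIEZO2: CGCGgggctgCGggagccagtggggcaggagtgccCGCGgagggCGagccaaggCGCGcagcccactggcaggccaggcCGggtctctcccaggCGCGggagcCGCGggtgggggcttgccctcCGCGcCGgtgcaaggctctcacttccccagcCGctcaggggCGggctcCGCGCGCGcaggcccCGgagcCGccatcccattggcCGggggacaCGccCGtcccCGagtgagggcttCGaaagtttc
ANO5: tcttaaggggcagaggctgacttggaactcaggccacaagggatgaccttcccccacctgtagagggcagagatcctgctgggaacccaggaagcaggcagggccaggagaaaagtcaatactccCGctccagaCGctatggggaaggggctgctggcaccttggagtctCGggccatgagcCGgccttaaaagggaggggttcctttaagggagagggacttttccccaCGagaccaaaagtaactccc
The PIEZO2 stretch holds 29 CG dinucleotides and is 76.8% G or C, and the ANO5 stretch holds 5 and is 58.4% G or C. Of the 165 members, 127 were matched to the RefSeq table, among them all 20 called genes. Where a gene has several starts in the table, the median of their CG numbers was taken, and a motif counted if it lay before any of them. The median number of CG was 21 in the 13 higher genes and 7 in the 7 lower genes. It was 17.5 in 83 matched members tested but not called, and 11 over 27303 genes of the table. TGANTCA, the AP-1 motif, was found on either strand before 3 of 13 higher and 1 of 7 lower genes. It lay before 12.6% of all matched members, 9.64% of those not called and 8.06% of all genes. GGAATG, the TEAD motif, was found before 3 higher and 1 lower genes, 15% of matched members, 9.64% of those not called and 14.3% of all genes. TATAAA lay before 2 higher and 2 lower genes, 14.2% of matched members, 9.64% of those not called and 13% of all genes. Neither printed stretch holds any of these letters. The groups are small, and these counts describe letters in the window and not binding.

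**Figure D2:**
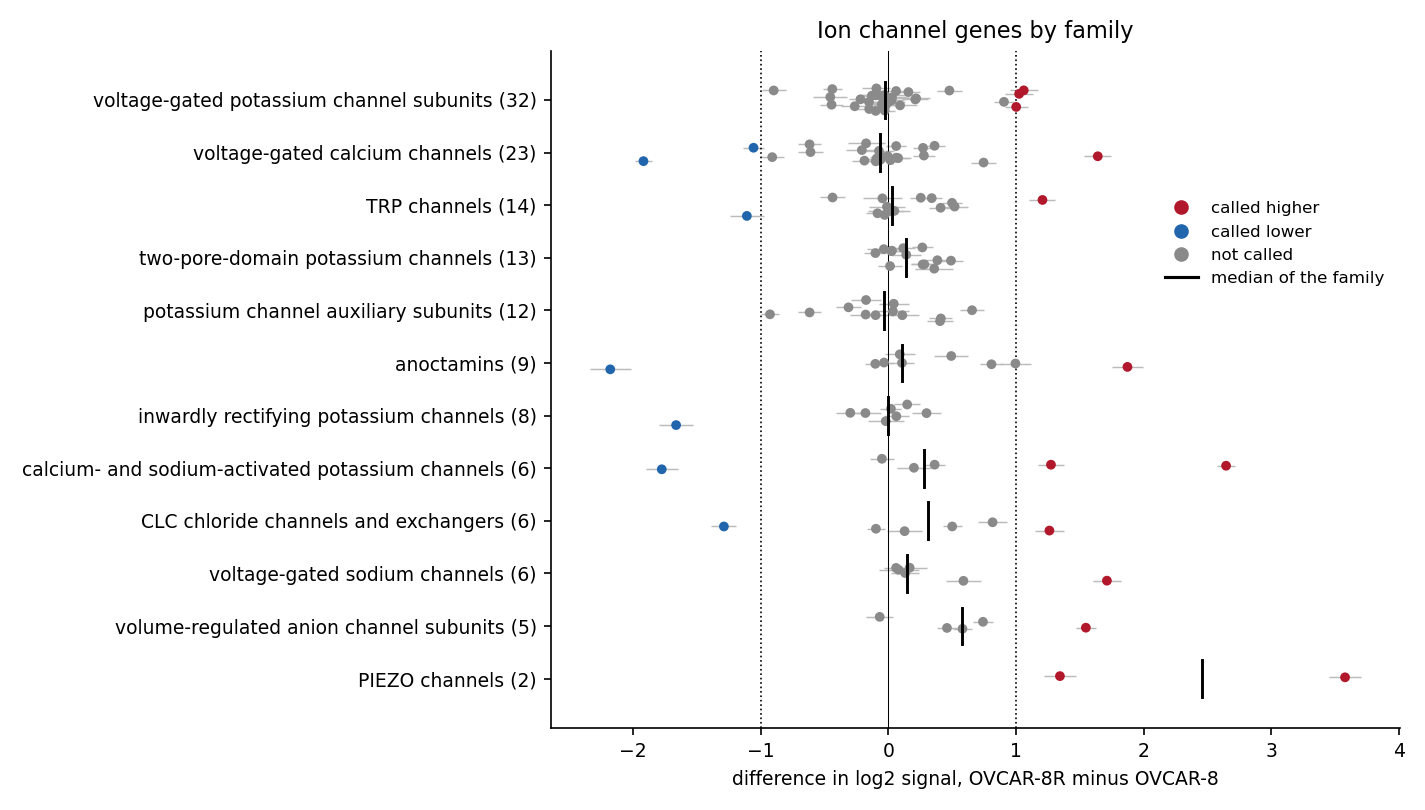
Difference in log2 signal (OVCAR-8R minus OVCAR-8, horizontal axis) of each of the 136 ion channel genes tested, by family with the number tested in brackets. Points are genes with their standard error in grey, red where called higher, blue where called lower and grey where not called, the black bar is the family median and dotted lines mark 2-fold. Most families centre near 0, and both PIEZO genes lie beyond the right-hand line.

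Both PIEZO genes, which encode large cation channels opened by membrane tension, were higher in OVCAR-8R spheroids. In this family of 2 the share called was 100%, against 16.7% of all genes. PIEZO2 is best known from touch and proprioceptive neurons. Its log2 signal was 9.27, 9.75, 9.55 and 9.74 on the OVCAR-8R arrays and 5.98, 5.77, 6.13 and 6.13 on the OVCAR-8 arrays. The lowest OVCAR-8R array was far above the highest OVCAR-8 array (standard error 0.13, adjusted p = 1.66e-08). The other probesets of PIEZO2 gave differences of 2.99 and 3.16, close to that of the first, though their OVCAR-8 means of 5.23 and 4.86 lie just above and below the OVCAR-8 quartile of 5.16. PIEZO1, the widely expressed member, had signals of 8.74, 9.08, 8.77 and 9.08 on the OVCAR-8R arrays and 7.59, 7.31, 7.79 and 7.62 on the OVCAR-8 arrays and rose by 1.34 (standard error 0.12, adjusted p = 1.02e-05). A dimmer PIEZO1 probeset differed by 0.22 (adjusted p = 0.135), and the mean of both probesets by 0.78, under 2-fold, so the PIEZO1 call rests on 1 of its 2 probesets.

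Of the 5 LRRC8 genes, LRRC8E was called higher (20% called, against 16.7% of all genes) and the other 4 differed by less than 2-fold. LRRC8E, whose subunit joins LRRC8A in volume-regulated anion channels, gave 8.33, 8.38, 8.44 and 8.35 on the OVCAR-8R arrays and 7.0, 6.75, 6.82 and 6.74 on the OVCAR-8 arrays, and it rose by 1.55 (standard error 0.077, adjusted p = 1.62e-07). LRRC8A, the subunit that every such channel needs, had 8.76, 8.81, 8.66 and 8.52 on the OVCAR-8R arrays and 8.17, 8.27, 8.28 and 8.2 on the OVCAR-8 arrays. Its difference was 0.46 (95% interval 0.28 to 0.64, adjusted p = 0.000878), so the lines were separated but by less than 2-fold. LRRC8D, the subunit linked to passage of platinum drugs, had 9.83, 9.99, 9.82 and 10.04 on the OVCAR-8R arrays and 9.18, 9.11, 9.19 and 9.22 on the OVCAR-8 arrays, a difference of 0.74 (95% interval 0.57 to 0.91, adjusted p = 2.05e-05). LRRC8B, LRRC8C and LRRC8D are neighbours on chromosome 1. LRRC8C differed by 0.58 (0.41 to 0.75) without overlap of the lines, while LRRC8B, at -0.068 (-0.30 to 0.17, adjusted p = 0.631), overlapped. The lines were separated in 4 of the 5 LRRC8 genes, all but LRRC8B, which is 80% against 56.8% of all genes. The study reported no difference in net cisplatin uptake between the lines, measured as platinum content. For this assay its methods describe cells plated in flasks and its results describe spheroids. Drug passage through LRRC8 channels was not tested here.

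**Figure D3:**
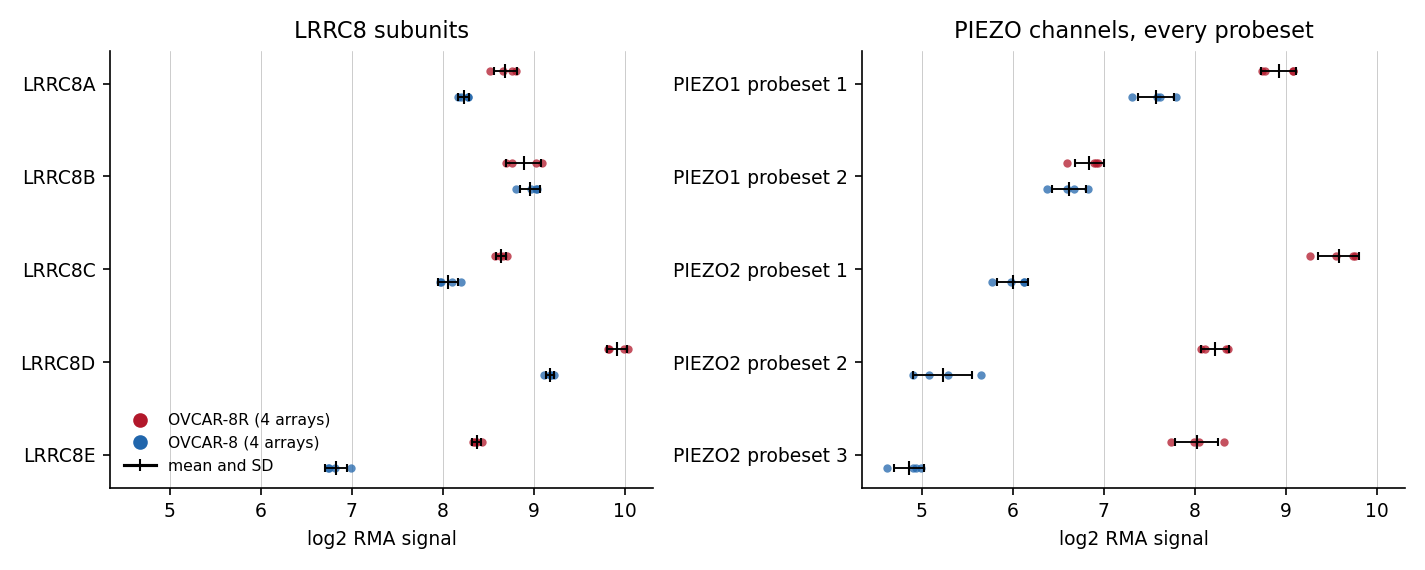
Log2 RMA signal (horizontal axis) of the 5 LRRC8 genes and of every probeset of PIEZO1 and PIEZO2 on each OVCAR-8R (red) and OVCAR-8 (blue) array, with mean and SD in black. The means differ by 1.55 for LRRC8E, by 2.99 to 3.58 for the 3 PIEZO2 probesets, and by 1.34 and 0.22 for the PIEZO1 probesets. At the dimmer PIEZO1 probeset the lines overlap.

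Potassium channel genes made up 85 of the 165 members. Of the 71 that passed the filter, 5 were higher, 2 were lower and 64 were not called, a share called of 9.86% against the background of 16.7%. Of 6 channels opened by calcium or sodium, KCNMA1 and KCNN4 were higher and KCNT2 was lower, 50% called in this small group. KCNMA1 encodes the pore of BK channels, which open with calcium and depolarisation, and its signal was 8.02, 7.99, 8.02 and 8.16 on the OVCAR-8R arrays and 5.43, 5.4, 5.46 and 5.33 on the OVCAR-8 arrays. The 4 arrays of each line lay within a narrow band and the bands were far apart (standard error 0.07, adjusted p = 2.39e-09, 6.25-fold). KCNN4, which encodes the intermediate-conductance calcium-activated channel, gave 7.3, 6.92, 7.27 and 7.11 on the OVCAR-8R arrays and 5.79, 6.02, 5.86 and 5.84 on the OVCAR-8 arrays and rose by 1.27 (standard error 0.099, adjusted p = 3.01e-06). KCNT2, a sodium-activated channel gene, moved the other way, with 5.6, 5.78, 5.66 and 6.02 on the OVCAR-8R arrays and 7.34, 7.38, 7.68 and 7.77 on the OVCAR-8 arrays. It fell by 1.78 (standard error 0.13, adjusted p = 1.74e-06), without overlap. KCNN1, KCNN3 and KCNT1 were not called, at 0.36, -0.051 and 0.20.

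BK channels carry auxiliary beta subunits that tune their calcium response. KCNMB4, the beta subunit best known from neurons, had 7.37, 7.46, 7.54 and 7.6 on the OVCAR-8R arrays and 8.37, 8.41, 8.48 and 8.43 on the OVCAR-8 arrays. Its difference of -0.93 (standard error 0.073, adjusted p = 3.44e-06) separated the lines but was under 2-fold, opposite in sign to that of the pore gene KCNMA1. KCNMB3 and KCNMB1 differed by 0.40 and -0.18, and KCNMB2 was left out by the filter. None of the 12 auxiliary potassium channel subunits tested was called by limma or by the methods' t-test, and 3 lay above and 3 below at an unadjusted p below 0.05 with no threshold on size. Over all genes, 29.5% lay above and 32.1% below by that criterion. Their differences ran from -0.93 to 0.65, and 4 more were left out (KCNE2, KCNE3, KCNIP4 and KCNMB2).

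Of 8 inwardly rectifying channels tested, KCNJ8 was lower and 7 were not called, a share called of 12.5% against 16.7% of all genes. KCNJ8 encodes Kir6.1, a pore of ATP-sensitive potassium channels, and its signal was 7.57, 7.48, 7.31 and 7.52 on the OVCAR-8R arrays and 9.15, 9.52, 8.97 and 8.9 on the OVCAR-8 arrays. It fell by 1.66 (standard error 0.13, adjusted p = 3.55e-06), and the lines did not overlap. The other ATP-sensitive pore gene, KCNJ11, differed by -0.30, and the genes of the sulfonylurea receptors that complete these channels, ABCC8 and ABCC9, by -0.60 and 0.30. Another 5 rectifier genes were left out (KCNJ1, KCNJ6, KCNJ10, KCNJ13 and KCNJ16). None of 13 two-pore-domain channels, which carry background potassium currents, was called by limma or by the methods' t-test, while 6 lay above and 0 below at an unadjusted p below 0.05 with no threshold on size, where all genes had 29.5% above and 32.1% below. Their differences ran from -0.10 to 0.49, and KCNK10 and KCNK17 were left out. The largest was that of KCNK15, with 8.51, 8.28, 8.59 and 8.34 on the OVCAR-8R arrays and 7.98, 8.04, 7.96 and 7.79 on the OVCAR-8 arrays (standard error 0.092, adjusted p = 0.00133). KCNK1 had a difference of 0.022 (95% interval -0.20 to 0.25).

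Of 32 voltage-gated potassium channel genes tested, 3 were higher and 29 were not called, with differences of -0.90 to 0.91 among the latter. The share called was 9.38%, against 16.7% of all genes. KCNQ5, a subunit of the M-type channels that dampen excitability, had 8.83, 9.07, 8.78 and 9.19 on the OVCAR-8R arrays and 7.73, 7.93, 7.98 and 7.99 on the OVCAR-8 arrays and rose by 1.06 (standard error 0.11, adjusted p = 2.03e-05). KCNH8, of the ELK channels, had 6.16, 6.25, 6.0 and 6.29 on the OVCAR-8R arrays and 4.88, 5.36, 5.18 and 5.17 on the OVCAR-8 arrays. It rose by 1.02 (standard error 0.11, adjusted p = 3.22e-05) from an OVCAR-8 mean of 5.15, which lies in the lowest quartile, so it passed the filter through OVCAR-8R alone and the size of its difference is uncertain. KCND1, of the rapidly inactivating Kv4 channels, had 7.0, 7.13, 6.86 and 7.16 on the OVCAR-8R arrays and 6.16, 6.06, 5.91 and 6.01 on the OVCAR-8 arrays and rose by 1.0 (standard error 0.09, adjusted p = 8.59e-06), at the edge of the threshold. The KCNH8 call was lost without OVCAR-8R array 2 or 4 or OVCAR-8 array 1 (lowest value 0.93), the KCND1 call without OVCAR-8R array 2 or 4 or OVCAR-8 array 3 or 4 (lowest value 0.96) or with arrays centred on their medians (0.99), and the KCNQ5 call without OVCAR-8R array 4 (0.99). KCNV1, a silent subunit that modifies other channels, had 7.13, 7.08, 7.12 and 7.15 on the OVCAR-8R arrays and 6.16, 6.13, 6.41 and 6.17 on the OVCAR-8 arrays, a difference of 0.91 (standard error 0.079, adjusted p = 6.84e-06), just under 2-fold. KCNH1, the EAG1 channel gene often found in tumours, had 5.57, 5.35, 5.31 and 5.27 on the OVCAR-8R arrays and 5.15, 5.38, 5.19 and 5.16 on the OVCAR-8 arrays, with overlap of the lines and a difference of 0.16 (adjusted p = 0.179). The 7 KCNA genes ran from -0.44 to 0.091, and KCND2, KCNH5 and KCNH7 were left out.

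The sodium channel family had 12 members, of which 6 lay in the lowest quartile in both lines (SCN1A, SCN2A, SCN3A, SCN7A, SCN10A and SCN11A). Of the other 6, SCN8A was higher and 5 were not called, at 0.06 to 0.59. The share called was 16.7%, as over all genes. SCN8A encodes Nav1.6, a sodium channel of neurons that is also transcribed in some carcinomas. Its signal was 8.08, 8.42, 8.1 and 8.38 on the OVCAR-8R arrays and 6.59, 6.33, 6.66 and 6.55 on the OVCAR-8 arrays, without overlap, and it rose by 1.71 (standard error 0.11, adjusted p = 8.41e-07). Its other probeset gave 1.6. SCN9A, the pain-fibre channel gene, had a difference of 0.06, and the beta subunit gene SCN4B one of 0.59.

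Many voltage-gated calcium channels, though not all, consist of a CACNA1 pore with a CACNB and a CACNA2D subunit that bring it to the surface. All 10 pore genes differed by less than 2-fold, from -0.62 for CACNA1C to 0.36 for CACNA1H. With no threshold on size, the adjusted p was below 0.05 for 3 upward and 1 downward, together 40% against 57.6% of all genes. The second CACNA1C probeset differed by 0.08. The family had 13% called against 16.7% of all genes, and the calls fell on the partner subunits. CACNB3 had 8.53, 8.88, 8.58 and 8.78 on the OVCAR-8R arrays and 7.06, 7.15, 7.17 and 6.83 on the OVCAR-8 arrays and rose by 1.64 (standard error 0.11, adjusted p = 9.81e-07). CACNB2 had 5.87, 5.71, 5.79 and 5.79 on the OVCAR-8R arrays and 6.77, 6.78, 7.04 and 6.79 on the OVCAR-8 arrays and fell by 1.06 (standard error 0.082, adjusted p = 3.11e-06), a call lost without OVCAR-8 array 3 (-0.99). CACNB1 differed by 0.75, less than 2-fold. CACNA2D3 had 5.54, 5.53, 5.52 and 5.38 on the OVCAR-8R arrays and 7.41, 7.44, 7.34 and 7.45 on the OVCAR-8 arrays. It fell by 1.92 (standard error 0.069, adjusted p = 1.82e-08), to an OVCAR-8R mean of 5.49, little above the OVCAR-8R quartile of 5.11. CACNA2D1, the target of gabapentin, had 6.82, 7.14, 6.91 and 7.14 on the OVCAR-8R arrays and 7.84, 7.98, 7.82 and 8.0 on the OVCAR-8 arrays, a difference of -0.91 just under 2-fold (standard error 0.095, adjusted p = 2.30e-05), which passed it with OVCAR-8R arrays 1 and 3 alone (-1.05). The other alpha2delta genes, CACNA2D2 and CACNA2D4, differed by -0.61 and -0.051. The 6 CACNG genes tested ran from -0.21 to 0.061, and CACNG2 and CACNG3 were left out.

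Of the 6 CLC genes, CLCN7 was higher, CLCN5 was lower and 4 were not called, a share called of 33.3% against 16.7% of all genes. CLCN7 encodes the chloride-proton exchanger of lysosomes, and its signal was 8.6, 8.68, 8.53 and 8.49 on the OVCAR-8R arrays and 7.27, 7.03, 7.57 and 7.39 on the OVCAR-8 arrays, a rise of 1.26 (standard error 0.11, adjusted p = 7.60e-06). OSTM1, its obligatory partner, had a difference of 0.33. CLCN5, the endosomal exchanger mutated in Dent disease, gave 6.36, 6.73, 6.51 and 6.62 on the OVCAR-8R arrays and 7.79, 7.72, 7.99 and 7.88 on the OVCAR-8 arrays and fell by 1.29 (standard error 0.097, adjusted p = 2.48e-06). Both genes separated the lines. CLCN3, which has been tied to cell volume and endosomes, had 9.21, 9.22, 9.31 and 9.13 on the OVCAR-8R arrays and 9.38, 9.22, 9.36 and 9.3 on the OVCAR-8 arrays, overlapping values with a difference of -0.098 (95% interval -0.26 to 0.063). CLCN6 and CLCN4 differed by 0.82 and 0.50 and CLCN1, the muscle channel, by 0.13.

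Anoctamins are calcium-activated chloride channels or lipid scramblases. Of 9 tested, ANO4 was higher, ANO5 was lower and 7 were not called, a share called of 22.2% against 16.7% of all genes. ANO5, an intracellular member mutated in limb-girdle muscular dystrophy, had 6.71, 7.28, 6.73 and 7.32 on the OVCAR-8R arrays and 9.05, 9.42, 9.16 and 9.15 on the OVCAR-8 arrays. All OVCAR-8R arrays were lower, and they fell in pairs, with arrays 1 and 3 at 6.71 and 6.73 and arrays 2 and 4 at 7.28 and 7.32 (difference -2.18, standard error 0.16, adjusted p = 1.99e-06). ANO4 had 7.28, 7.58, 7.46 and 7.63 on the OVCAR-8R arrays and 5.76, 5.38, 5.49 and 5.83 on the OVCAR-8 arrays and rose by 1.87 (standard error 0.12, adjusted p = 8.68e-07). ANO10 had 9.46, 9.84, 9.74 and 9.73 on the OVCAR-8R arrays and 8.73, 8.38, 8.81 and 8.87 on the OVCAR-8 arrays, a difference of 0.99 (standard error 0.12, adjusted p = 8.12e-05) that was just under 2-fold. It passed the threshold under cyclic loess (1.07), without OVCAR-8R array 1 (1.07), without OVCAR-8 array 1, 3 or 4 (1.01 to 1.05) and with OVCAR-8R arrays 2 and 4 alone (1.09). ANO6, the scramblase of platelets and many other cells, differed by 0.81 and ANO8 by 0.49. ANO1, the calcium-activated chloride channel amplified in some carcinomas, had 5.32, 5.22, 5.27 and 5.26 on the OVCAR-8R arrays and 5.29, 5.41, 5.18 and 5.32 on the OVCAR-8 arrays and a difference of -0.035 (95% interval -0.20 to 0.13), which was 0.021 under cyclic loess. ANO3 was left out.

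Of 14 TRP genes tested, TRPV3 was higher, TRPC1 was lower and 12 were not called, at -0.44 to 0.52. The share called was 14.3%, against 16.7% of all genes. TRPV3, a warmth-sensitive cation channel of keratinocytes, had 7.13, 7.04, 7.09 and 6.83 on the OVCAR-8R arrays and 5.71, 5.65, 5.99 and 5.93 on the OVCAR-8 arrays and rose by 1.21 (standard error 0.10, adjusted p = 5.49e-06). TRPC1, a receptor-operated cation channel subunit, had 8.02, 8.52, 8.28 and 8.59 on the OVCAR-8R arrays and 9.45, 9.67, 9.32 and 9.4 on the OVCAR-8 arrays. It fell by 1.11 (standard error 0.13, adjusted p = 6.03e-05), a call lost without OVCAR-8R array 1, where the difference was just under 2-fold. TRPM7, a channel with a kinase domain that carries magnesium and calcium, had 9.5, 9.85, 9.6 and 9.96 on the OVCAR-8R arrays and 9.12, 9.22, 9.22 and 9.28 on the OVCAR-8 arrays and a difference of 0.52 (95% interval 0.28 to 0.76, adjusted p = 0.00222). The calcium-activated TRPM4 and the oxidant-activated TRPM2 differed by 0.50 and 0.41. TRPM8 and TRPV6, both reported in carcinomas, were among 6 genes left out, with means of 4.51 and 4.92 in OVCAR-8R and 4.52 and 4.62 in OVCAR-8. The others left out were TRPC5, TRPC6, TRPC7 and TRPM3.

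Just inside the threshold lay KCND1 (1.0), KCNH8 (1.02), CACNB2 (-1.06) and KCNQ5 (1.06), and just outside it ANO10 (0.99), KCNMB4 (-0.93), CACNA2D1 (-0.91) and KCNV1 (0.91). With treat, a limma test for more than 2-fold, 6 genes were higher (PIEZO2, KCNMA1, ANO4, SCN8A, CACNB3 and LRRC8E) and 4 were lower (ANO5, CACNA2D3, KCNT2 and KCNJ8), and the calls of the other 10 ended. Members left out by the filter numbered 29, with means of 4.01 to 5.14 in either line. Another 4 members passed through 1 line only (CLCN4, TRPC4 and KCNH8 through OVCAR-8R and TRPM6 through OVCAR-8).

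**Figure D4:**
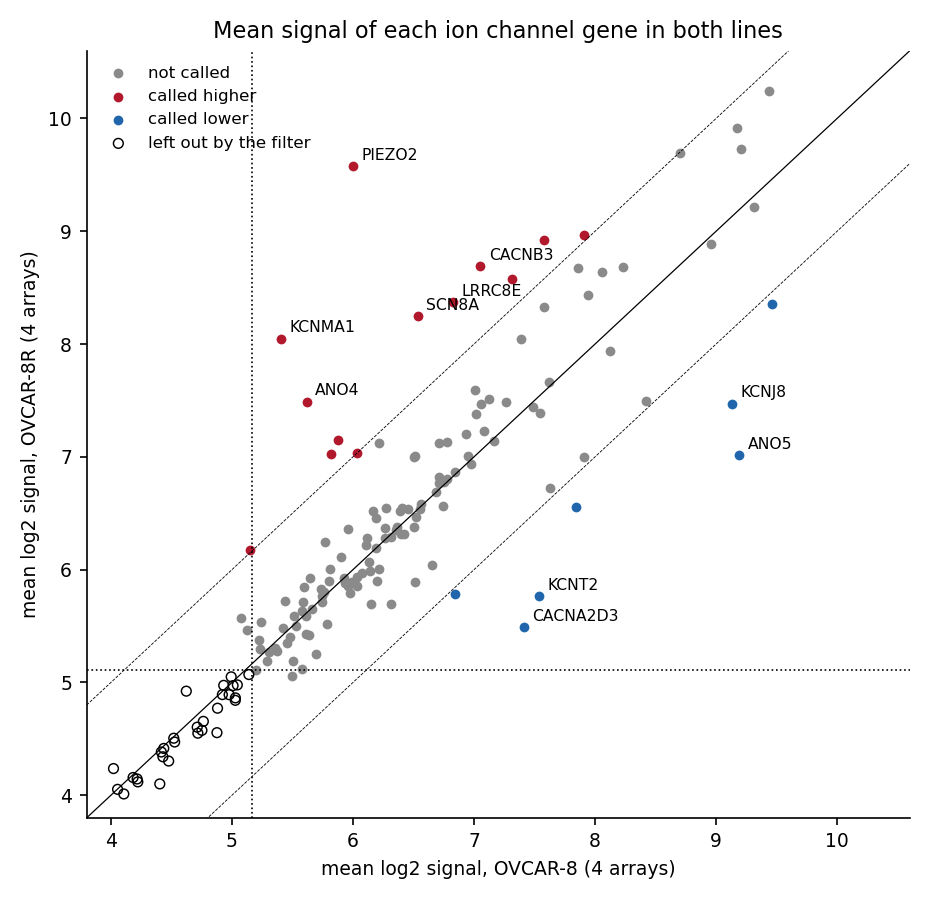
Mean log2 signal of each of the 165 ion channel genes in OVCAR-8 (horizontal axis) and OVCAR-8R (vertical axis), red where called higher, blue where called lower, grey where not called and open where left out by the filter. Dotted lines are the lowest quartile of each line (5.16 and 5.11), the solid line marks equal signal, dashed lines mark 2-fold, and the 10 genes with the largest differences are named. The 29 open points all sit in the lower left corner.

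The OVCAR-8R arrays fell into pairs. Over the probesets tested, deviations from the line's mean correlated at 0.427 between arrays 1 and 3 and at 0.484 between arrays 2 and 4, and at -0.684 to -0.763 between the pairs, where deviations of 4 independent arrays from their own mean would correlate at -0.333. The labels give no batch for these arrays. In 12 of the 20 called members, PIEZO2, ANO5, SCN8A and TRPC1 among them, arrays 1 and 3 both lay below arrays 2 and 4, and in 2 (KCNN4 and TRPV3) both lay above. Over the 136 members tested, arrays 1 and 3 were both below in 24 (17.6%) and both above in 70 (51.5%), against 33.8% and 33.8% of all genes. With OVCAR-8R arrays 1 and 3 alone against the OVCAR-8 arrays, 10 members were higher and 8 lower, and with arrays 2 and 4 alone 14 were higher and 7 lower. The calls of KCND1, KCNH8 and KCNQ5 ended in the first case (0.89, 0.93 and 0.90), and CACNA2D1 was called lower (-1.05). In the second case the call of TRPC1 ended (-0.91), KCNG3 was called lower (-1.04, a silent subunit of voltage-gated potassium channels) and ANO10 was called higher (1.09). What sets the pairs apart was not tested.

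Channel work depends on stores, pumps and partners, which were counted in 4 further lists of genes that are not members. Of 21 genes for store-operated and intracellular calcium channels, 1 was higher and 1 lower, 9.52% called against the background of 16.7%, with a median difference of 0.14. The higher gene was ITPR3, an IP3 receptor that releases calcium from the endoplasmic reticulum, with 10.43, 10.45, 10.34 and 10.49 on the OVCAR-8R arrays and 6.77, 6.52, 6.83 and 7.0 on the OVCAR-8 arrays (3.65, standard error 0.10, adjusted p = 3.25e-09). RYR2, the cardiac ryanodine receptor gene, fell by 1.58 (standard error 0.082, adjusted p = 1.97e-07), and its OVCAR-8R mean of 5.02 lies in the lowest quartile. ITPR1 and ITPR2 differed by 0.03 and -0.74, STIM1 and STIM2, the sensors of store filling, by 0.074 and -0.099, and the pore genes ORAI1, ORAI2 and ORAI3 by 0.61, 0.23 and 0.90.

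Of 26 genes from families of pumps and carriers of the same ions, FXYD regulators included, 4 were higher and 1 lower. This is 19.2% called, with a median of 0.021. ATP2B4, a plasma membrane calcium pump, rose by 2.37 (standard error 0.083, adjusted p = 1.52e-08), SLC12A8 by 1.87 (standard error 0.15, adjusted p = 3.27e-06), and SLC12A4, the potassium-chloride cotransporter KCC1, by 1.41 (standard error 0.09, adjusted p = 8.36e-07). The fourth was FXYD5 (1.18), a small regulator of the sodium pump. SLC8A1, a sodium-calcium exchanger, fell by 1.17 (standard error 0.085, adjusted p = 1.97e-06). SLC12A2, the cotransporter that loads cells with chloride, differed by -0.81. Of 35 genes of other channel families, 4 were higher and 31 were not called, a share called of 11.4%, with a median of 0.12. The higher genes were CLIC2, which rose by 3.7 from an OVCAR-8 mean of 4.43 in the lowest quartile, the ATP-gated channel gene P2RX4 (1.69), CLIC1 (1.32) and CLIC4 (1.2). CLIC proteins are glutathione transferase-like proteins found both soluble and in membranes. The cystic fibrosis channel gene CFTR was left out, at 4.13 and 4.12.

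Of 34 partners and regulators, 5 were higher and 1 lower, 17.6% called, with a median of 0.018. NEDD4, a ubiquitin ligase that removes membrane proteins, rose by 2.12 (standard error 0.095, adjusted p = 7.56e-08), OXSR1, a kinase that controls chloride cotransporters on volume change, by 1.6 (standard error 0.066, adjusted p = 4.38e-08), and STAC, an adaptor of calcium channels, by 1.19 (standard error 0.096, adjusted p = 3.94e-06) from an OVCAR-8 mean of 5.18, just above the lowest quartile. ANK3, which encodes ankyrin-G and anchors sodium and KCNQ channels, had 5.31, 5.35, 5.11 and 5.22 on the OVCAR-8R arrays and 7.5, 7.47, 7.48 and 7.47 on the OVCAR-8 arrays and fell by 2.23 (standard error 0.073, adjusted p = 9.81e-09). The other genes called higher were NEDD4L (1.15) and FGF12 (1.07).

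**Figure D5:**
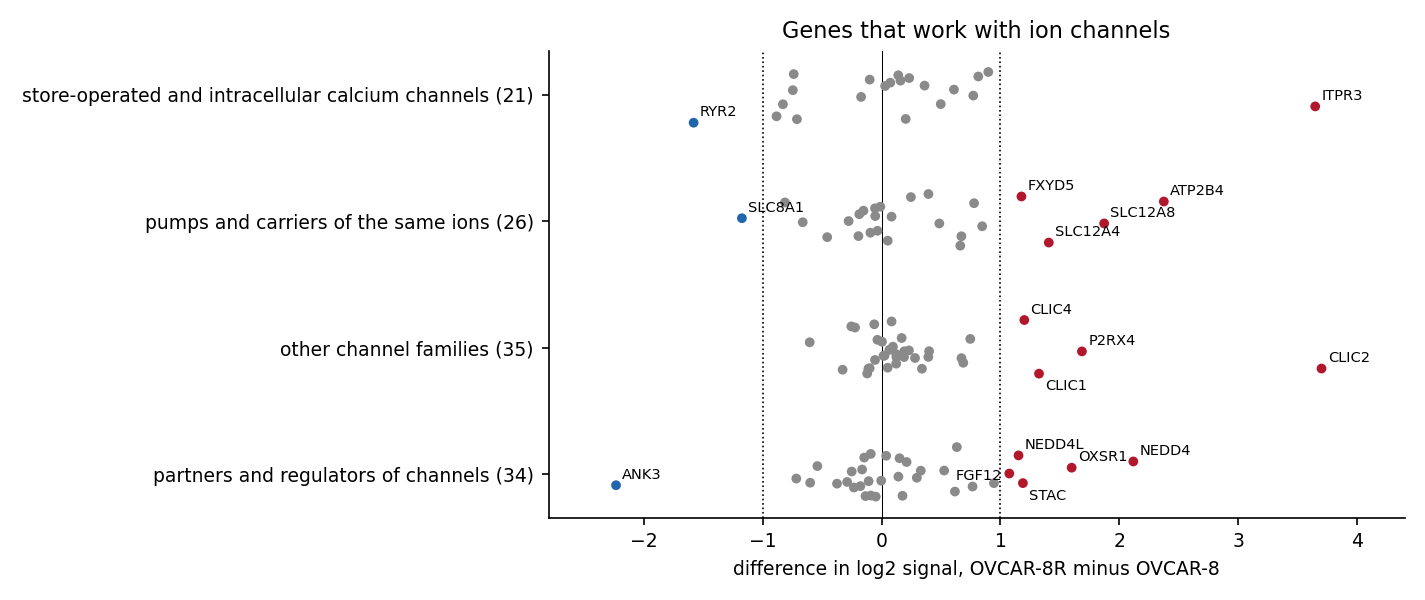
Difference in log2 signal (OVCAR-8R minus OVCAR-8, horizontal axis) of the genes tested in 4 lists that work with ion channels, with the number tested in brackets. Each point is a gene, red where called higher, blue where called lower and grey otherwise, with called genes named and dotted lines at 2-fold. ITPR3 (3.65) and CLIC2 (3.70) lie farthest to the right and ANK3 (-2.23) farthest to the left.

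Markers of channel-rich tissues were counted beside these results, where 16.7% of all genes tested were called. Of 6 neuronal markers, 4 passed the filter, and 25% of these were called. NEFL, a neurofilament gene, fell by 2.49 while SYT1, RBFOX3 and SNAP25 differed by 0.53, 0.56 and 0.16. MAP2 and STMN2 were left out. The mean log2 signal of the 6 was 6.52 to 6.62 on OVCAR-8R and 6.71 to 6.87 on OVCAR-8 arrays. Of 6 muscle markers, 5 had a probeset and passed, all under 2-fold, with differences of -0.056 (MYH7) to 0.99 (ACTN2) and mean signals of 6.76 to 6.99 and 6.49 to 6.66. Of 9 markers of ovarian carcinoma and epithelial cells, 5 were called higher (PAX8, KRT7, KRT8, KRT18 and EPCAM). This is 55.6%, against 8.37% of all genes called higher. WT1, a marker of serous ovarian carcinoma, was lower by less than 2-fold (-0.86, adjusted p = 0.000202), and CDH1, KRT19 and MUC16 differed by -0.23, 0.078 and 0.068. The mean signal of the 9 was 8.46 to 8.67 on OVCAR-8R and 6.92 to 7.08 on OVCAR-8 arrays. Of 4 fibroblast markers tested, 25% were called. COL1A1 rose by 2.04, COL1A2, COL3A1 and PDGFRA differed by -0.041, -0.074 and -0.02, and DCN was left out. The list's mean was 6.15 to 6.37 on OVCAR-8R and 5.75 to 5.93 on OVCAR-8 arrays, a gap that comes from COL1A1. The blood and endothelial markers tested all differed by less than 2-fold, with list means of 4.91 to 5.11 and 5.44 to 5.57 in OVCAR-8R and 4.93 to 5.05 and 5.29 to 5.42 in OVCAR-8. The part of any of these lists in the channel differences was not tested.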

How the data were processed

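The authors computed RMA signals in Expression Console (version 1.1), and the deposited table holds a linear-scale intensity for each of 33297 probesets on each of 8 arrays, of which log2 was taken here. RMA makes the distributions of the arrays alike and so hides a difference in total RNA. An annotation gave 1 gene for 19460 probesets, several for 1754 and none for 12083. The probeset with the highest mean stood for a gene, and 6 of the 165 members have several (174 in all). KCNJ12 and KCNJ18 share a probeset and were not analysed here.

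Following the study's methods, probesets whose mean was in the lowest 25% in each of the lines were removed, leaving 25628. Lines were compared with limma (version 3.58.1, lmFit and eBayes, in R version 4.3.3), with p-values adjusted by Benjamini-Hochberg and no covariate. The code was tested on simulated data. Arrays are labelled as biological replicates, but the step at which they separate is unknown, so the p-values reflect variation among these 8 arrays, partly technical perhaps. Their number limits the precision. The fit treated the OVCAR-8R arrays as independent although they fell into pairs, so its standard errors and p-values may be too small.

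Members and lists were chosen with earlier results of these data known. Genes named were the called members, the largest difference of each family, the LRRC8 and PIEZO genes, members with differences of 0.9 to 1.1 in size, 10 channels listed by name, and up to 3 called genes per direction of each further list. Other genes were named after their values were seen. Alternatives were other filters, thresholds, tests, scalings and probeset choices, array weights, a replicate block, each array left out, and, chosen after seeing the data, each pair of OVCAR-8R arrays alone.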

Additional observations from a re-analysis of the deposited data

Results flagged for a closer look

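In 98 groups of 4 arrays (49 named genes in both lines), 6 arrays stood apart from the other 3 of their line by the gap to the nearest one relative to the group's range. Chance gives about 1 such array in 20 groups. CACNA2D3 on OVCAR-8R array 4 was at 5.375 (nearest 5.517), CACNB2 on OVCAR-8 array 3 at 7.039 (6.787), KCNV1 on OVCAR-8 array 3 at 6.409 (6.167), KCNH1 on OVCAR-8 array 2 at 5.375 (5.189), RYR2 on OVCAR-8 array 3 at 6.765 (6.559), and SLC12A8 on OVCAR-8 array 1 at 6.872 (6.444). For CACNB2, leaving out that array took the difference to -0.99 and ended the call, and for the other 5 genes the side of the threshold stayed as it was without that array.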

How the results depend on the processing

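The counts of 13 higher and 7 lower members stayed within 1.5 times under each filter, scaling, test and probeset choice tried except treat and the 1.5-fold threshold, at 12 to 14 higher and 7 lower. Treat gave 6 higher and 4 lower members, 0 lower pumps and carriers and 2 higher partners. The 1.5-fold threshold gave 21 higher and 13 lower members, 5 and 6 calcium store genes, 8 and 3 pumps and carriers, 7 and 1 genes of other channel families, and 9 and 3 partners. A filter at the median left 0 lower calcium store genes and 3 higher partners. With OVCAR-8R arrays 1 and 3 alone, 2 calcium store genes were lower. Leaving out single arrays gave 10 to 14 higher and 6 to 7 lower members, and the counts of the further lists did not move. The cause of these changes was not tested, beyond the stricter or looser thresholds themselves.

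Signs turned for 3 genes near 0. ANO1 was at 0.021 under cyclic loess and at -0.074 to 0.0023 with single arrays left out, KCNK1 at -0.046 to 0.12 with single arrays left out, and LRRC8B at 0.095 with OVCAR-8R arrays 2 and 4 alone. The median difference of all probesets was -0.025, against -0.033 with arrays centred on their medians and 0.0092 under cyclic loess. The arrays share replicate numbers between the lines, and the deviations of same-numbered arrays correlated at 0.165, -0.323, -0.0515 and 0.443. These mixed values do not settle whether same-numbered arrays were prepared together, and the main fit did not pair them. With the replicate block, 13 members were higher and 7 lower, and no call of a named gene changed. Signals near the lowest quartile limit the size of the differences of KCNH8, RYR2, CLIC2, STAC and ANK3. The same may hold for KCNMA1 and CACNA2D3, whose means in the lower line lie little above that quartile.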
